A study of Mus musculus with 8 samples.

Results

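The carnitine shuttle carries long-chain fatty acids into mitochondria for oxidation, and 1 of its genes, Cpt1b, lies beside the choline kinase gene Chkb in mouse. The 10 genes described here are Slc22a5, Cpt1a, Cpt1b, Cpt1c, Slc25a20, Cpt2, Crat, Crot, Chkb and BC090627. They were chosen by name, with earlier results of these data known, out of 22869 genes in the authors' table of RNA-seq read counts. They were measured in whole inguinal white adipose tissue, a subcutaneous fat depot, from Fabp4-Ebf2 mice and from wild-type mice, with 4 libraries of each genotype. All mice were about 6 weeks old, of mixed background strain, on normal chow at room temperature, and lymph nodes had been removed from the tissue. In the study's name for the transgenic line, the promoter of Fabp4, a fatty acid binding protein gene of adipocytes, drives Ebf2, a transcription factor of brown and beige fat cells. Whether 2 libraries can share an animal is not stated in the labels, and the p-values below therefore speak of variation among the 8 libraries.

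Fatty acids are activated to acyl-CoA in the cytosol and cannot cross the mitochondrial inner membrane in that form. Carnitine palmitoyltransferase 1 (CPT1) moves the acyl group to carnitine at the outer membrane, a carrier brings acylcarnitine into the matrix, and CPT2 returns the acyl group to CoA for beta-oxidation. CPT1 is the regulated step, inhibited by malonyl-CoA, and Cpt1b encodes its muscle isoform, which is also the main isoform of brown fat, where fatty acid oxidation fuels heat production through Ucp1.

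In mouse, Chkb and Cpt1b lie head to tail on the minus strand of chromosome 15 with 503 bases between them. BC090627 is a read-through transcript that starts in Chkb and runs on through Cpt1b. In the GENCODE M21 annotation of GRCm38, Cpt1b has 19 exons and 2895 bases of exon (chr15:89416405-89425863), Chkb has 11 exons and 1707 bases (chr15:89426367-89429899), and BC090627, listed there as Gm44502 with nonsense-mediated decay as its transcript type, has 27 exons and 4296 bases (chr15:89416405-89429696). The sources used here name mm9 as the authors' genome build, so these GRCm38 positions serve only to describe the transcripts. Of the exonic bases of BC090627, 2744 (63.9%) are shared with this Cpt1b transcript, 1383 (32.2%) with this Chkb transcript, and 169 (3.93%) with neither. The last lie in exon 3 of BC090627, between exons 3 and 4 of the Chkb transcript. Other transcripts of Chkb and Cpt1b, a retained-intron transcript of Chkb among them, were not compared. The sequences below are the splice junctions of BC090627 that are found in neither of the transcripts compared. Each is given 5′ to 3′ with 15 bases on either side, and capitals mark the bases after the junction. The first joins exon 10, in Chkb, to exon 11, in Cpt1b, over a 1140-base intron (chr15:89425347-89426488, minus strand, from the first base of one exon to the last of the other). The second joins exon 17 to exon 18, both in Cpt1b, and skips exon 9 of Cpt1b (chr15:89421540-89422289, minus strand). A read across the second could also come from Cpt1b RNA that lacks exon 9, so only the first joins Chkb to Cpt1b.
BC090627 exon 10 to exon 11: gggctgtgcctcaaaGTGCTGAATAAACCC
BC090627 exon 17 to exon 18: gaagagatcaagccgACTTGCTACAGCACC

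Promoters were available for 7 of the 10 genes in RefSeq (GRCm38.p6, 250 bases before and 50 after the start), and 3 are printed because they belong to members with different outcomes: Slc25a20 (chr9:108661886-108662185, plus strand) and Chkb (chr15:89429878-89430177, minus strand), whose RNA rose, and Cpt1a (chr19:3323051-3323350, plus strand), whose RNA did not pass the test. Those of Cpt1b, Crat and BC090627 were not used here. Capitals mark AGGTCA, the half-site of many nuclear receptors, read on either strand, so that TGACCT is the same half-site in reverse.
Slc25a20: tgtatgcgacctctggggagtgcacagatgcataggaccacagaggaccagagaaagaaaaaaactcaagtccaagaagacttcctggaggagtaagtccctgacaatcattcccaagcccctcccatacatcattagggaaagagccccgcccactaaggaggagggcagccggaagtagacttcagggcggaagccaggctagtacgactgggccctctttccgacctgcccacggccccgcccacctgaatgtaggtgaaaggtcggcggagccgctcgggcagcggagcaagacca
Chkb: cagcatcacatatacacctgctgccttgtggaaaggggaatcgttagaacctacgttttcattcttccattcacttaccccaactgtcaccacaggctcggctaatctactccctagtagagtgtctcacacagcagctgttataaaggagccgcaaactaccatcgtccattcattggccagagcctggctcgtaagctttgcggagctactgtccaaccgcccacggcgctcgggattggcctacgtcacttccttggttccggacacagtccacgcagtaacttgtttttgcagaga
Cpt1a: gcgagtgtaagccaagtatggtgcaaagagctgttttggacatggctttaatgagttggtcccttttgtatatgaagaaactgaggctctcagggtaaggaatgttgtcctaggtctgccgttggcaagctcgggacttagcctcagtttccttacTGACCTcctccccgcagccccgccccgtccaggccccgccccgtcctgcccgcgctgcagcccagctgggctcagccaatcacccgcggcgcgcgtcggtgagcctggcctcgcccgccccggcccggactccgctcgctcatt

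The half-site was present in the promoters of Cpt1a and Cpt1c and absent from those of Slc25a20, Chkb, Cpt2, Crot and Slc22a5, and 16.3% of 32851 RefSeq promoters of this length held it. The longer estrogen-related receptor element TCAAGGTCA, which contains the half-site, was in none of the 7, against 0.423% of all promoters. The EBF core CCCNNGGG, also read on both strands, was in none of the 7, against 13.7% of all promoters. These counts describe the letters in these windows and say nothing of binding.

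Across the shuttle, the genes for the muscle isoform of CPT1 and for the inner-membrane carrier were higher in Fabp4-Ebf2 tissue, and so were both other genes of the Chkb-Cpt1b locus. Cpt1b rose 17.5-fold, BC090627 5.38-fold, Slc25a20 2.77-fold and Chkb 1.47-fold (edgeR quasi-likelihood test, adjusted p from 0.00240 to 0.0266). Thus 4 of the 10 genes rose, none fell and 6 did not pass, while 2.8% of the 15002 genes tested rose and 0.62% fell, 3.42% in all. The median log2 fold change of the 10 genes was 0.58, beside -0.01 over all genes tested. Because the genes were chosen with earlier results of these data known, these shares describe them and do not test them as a set. Since the reads of BC090627 are those of its neighbours, the count without it was 3 of 9. In 7 of the 10 genes every Fabp4-Ebf2 library lay above every wild-type library in CPM (read counts per M reads), a pattern found in 7.35% of all genes tested. BC090627 is among these 7 and among the 10 genes behind the median, although it is not a separate measurement. The tissue was whole fat, so more cells expressing a gene and more RNA per cell cannot be told apart.

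**Figure D1:**
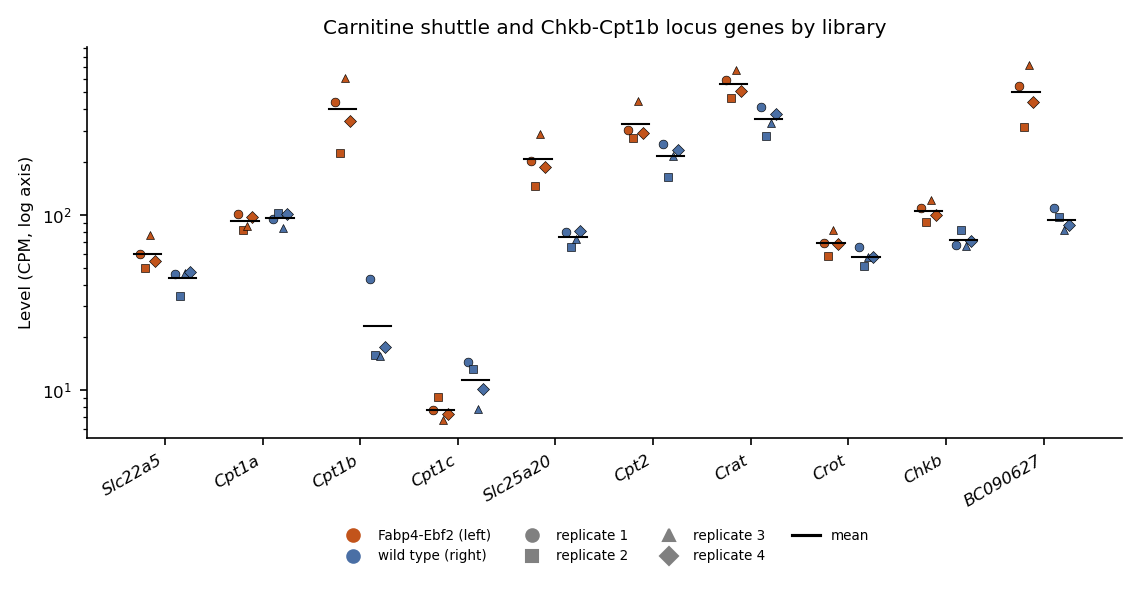
Levels of the 10 genes in CPM (log axis) in the 4 Fabp4-Ebf2 libraries (left of each pair) and the 4 wild-type libraries (right); each point is 1 library, its shape gives the replicate number, and bars are means. Cpt1b averaged 403 CPM in Fabp4-Ebf2 tissue and 23.1 CPM in wild type, while Cpt1a averaged 91.7 CPM in Fabp4-Ebf2 tissue and 95.8 CPM in wild type.

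The genotype was visible in Ebf2 itself, which had 499, 231, 575 and 447 CPM in Fabp4-Ebf2 libraries 1 to 4, against 37.0, 14.9, 30.3 and 29.4 CPM in wild-type libraries 1 to 4 (log2 fold change 3.98, edgeR adjusted p = 0.00177). Ucp1, the uncoupling protein of brown and beige fat, averaged 1146 ± 729 CPM in Fabp4-Ebf2 tissue and 35.1 ± 42.6 CPM in wild type (SD, n = 4 each; edgeR adjusted p = 0.0213). The groups did not overlap for either gene, and Fabp4-Ebf2 library 2 was the lowest of its genotype and wild-type library 1 the highest of its own for both. The call of Ucp1 was lost without Fabp4-Ebf2 library 1 or wild-type library 3 or 4, and that of Ebf2 in none of these fits. Read counts summed over 1 row per gene came to 16.9 to 24.7 M per library, and the 10 genes had between 116 and 12509 reads each per library. The tissue had RNA of adipocytes in every library. Summed CPM of 8 adipocyte markers ran from 23395 to 25814 in Fabp4-Ebf2 libraries and from 30455 to 39152 in wild-type ones. Cfd, the marker with the highest wild-type mean, weighed heavily in these sums. It averaged 14009 CPM there, against 6864 CPM with the transgene (edgeR adjusted p = 0.0516, not passing). By mean, 3 of the 8 markers (Pparg, Lipe and Plin1) were higher in Fabp4-Ebf2 and 5 were lower, with a median log2 fold change of -0.29. The mean log2 CPM of the list overlapped between genotypes. Only the adipokine gene Retn passed, and it fell (log2 fold change -0.82, edgeR adjusted p = 0.0276). Its call was kept in 3 of the 8 fits with 1 library left out.

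Carnitine enters cells through the plasma membrane transporter encoded by Slc22a5. Its level was 59.4, 49.5, 76.3 and 54.2 CPM in Fabp4-Ebf2 libraries 1 to 4, against 46.0, 34.6, 46.3 and 47.1 CPM in wild-type libraries 1 to 4. Every Fabp4-Ebf2 library was above every wild-type one, but the difference did not pass the test (log2 fold change 0.46 ± 0.15 SE, edgeR adjusted p = 0.139). Among 10 other genes of carnitine synthesis and transport, 8 were tested and none passed in either direction by edgeR (1 with an unadjusted p under 0.05) or DESeq2, with a median log2 fold change of -0.14. A count of 0 in 8 is near the 3.42% called over all genes, and 17.5% of all genes tested had an unadjusted p under 0.05. The smallest p-values in that list belonged to Tmlhe, the first enzyme of carnitine synthesis (log2 fold change 0.42, edgeR adjusted p = 0.135), and to Slc22a4, a related transporter of ergothioneine and carnitine (log2 fold change -0.37, edgeR adjusted p = 0.317).

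Of the 3 CPT1 isoforms, Cpt1b rose, and Cpt1a and Cpt1c did not pass the test. Cpt1b had 439.9, 226, 602 and 344 CPM in Fabp4-Ebf2 libraries 1 to 4, against 43.2, 15.8, 15.7 and 17.7 CPM in wild-type libraries 1 to 4. The lowest Fabp4-Ebf2 library was thus well above the highest wild-type library, which was library 1 and stood apart from the other wild-type libraries. Means were 403 ± 159 CPM in Fabp4-Ebf2 tissue and 23.1 ± 13.4 CPM in wild type (SD, n = 4 each), and the log2 fold change was 4.13 with an SE of 0.43 (edgeR adjusted p = 0.00282). Without wild-type library 1 the log2 fold change was 4.62, and it stayed past the threshold without any 1 of the 8 libraries.

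Cpt1a, the isoform of liver and most other tissues, had 100.6, 82.1, 86.9 and 97.1 CPM in Fabp4-Ebf2 libraries 1 to 4, against 94.8, 103, 83.7 and 102 CPM in wild-type libraries 1 to 4. The groups overlapped throughout (log2 fold change -0.06 ± 0.10 SE, edgeR adjusted p = 0.759). Cpt1c, a neuronal isoform of the endoplasmic reticulum with little known CPT1 activity, averaged 7.69 ± 1.02 CPM in Fabp4-Ebf2 tissue and 11.4 ± 3.00 CPM in wild type (SD, n = 4 each), with overlapping groups and no call (log2 fold change -0.56 ± 0.20 SE, edgeR adjusted p = 0.176).

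Within a library, Cpt1b reads exceeded Cpt1a reads in all 4 Fabp4-Ebf2 libraries and were fewer in all 4 wild-type libraries. The log2 ratio of Cpt1b to Cpt1a reads was 2.13, 1.46, 2.79 and 1.83 in Fabp4-Ebf2 libraries 1 to 4, against -1.13, -2.69, -2.40 and -2.52 in wild-type libraries 1 to 4. The groups did not overlap, and the means differed by 4.24 (exact two-sided permutation test, p = 0.0286, the smallest that 4 against 4 libraries can give, and the same after Benjamini-Hochberg adjustment over the 4 ratios computed, 2 of which, those with BC090627, are not independent of the rest). Per kilobase of transcript, Cpt1b made up 85.4%, 77.8%, 90.2% and 82.6% of the summed CPT1 isoforms in Fabp4-Ebf2 libraries, against 35.5%, 16.1%, 19.7% and 18.3% in wild-type libraries. Its mean share was 84.0 ± 5.21% in Fabp4-Ebf2 and 22.4 ± 8.86% in wild type, while the share of Cpt1a was 14.1 ± 4.32% in Fabp4-Ebf2 and 65.8 ± 9.06% in wild type (SD, n = 4 each). The summed level of the 3 isoforms was 163 ± 55.0 RPKM (reads per kb of transcript per M reads of the library) in Fabp4-Ebf2 tissue and 34.2 ± 5.94 in wild type, a ratio of 4.76. These shares describe RNA, with transcript lengths taken from GENCODE M21. The Cpt1b reads may include reads of the read-through RNA BC090627, in a part that was not measured.

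**Figure D2:**
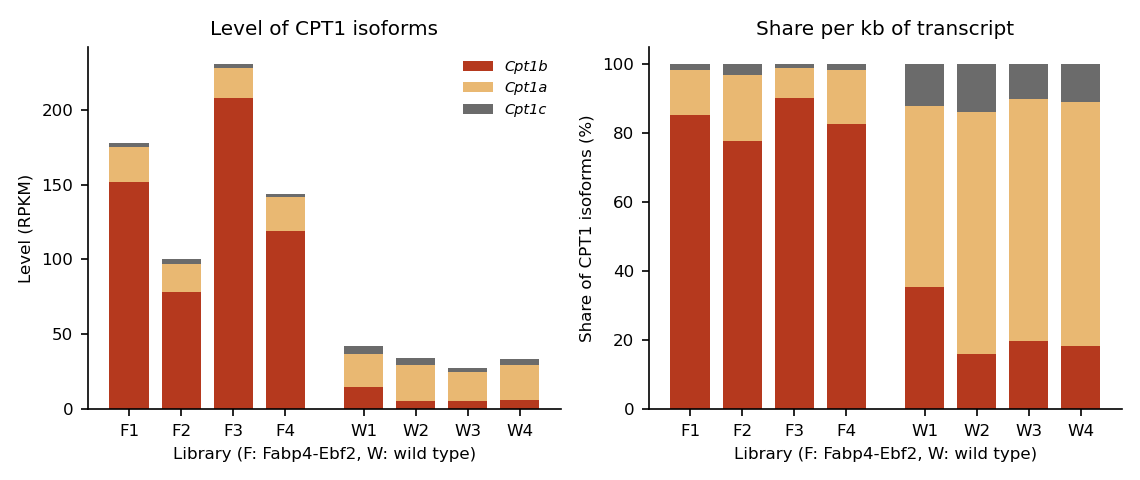
CPT1 isoforms in each library, as RPKM (left panel, stacked) and as a share of their sum in percent (right panel, stacked); F1 to F4 are Fabp4-Ebf2 and W1 to W4 wild-type libraries. The Cpt1a segment is of like height in all 8 libraries of the left panel, whereas Cpt1b made up 77.8% to 90.2% of the sum in Fabp4-Ebf2 and 16.1% to 35.5% in wild type.

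Slc25a20 encodes the carnitine-acylcarnitine translocase, which exchanges acylcarnitine for free carnitine across the inner membrane. It had 204, 146, 291 and 188 CPM in Fabp4-Ebf2 libraries 1 to 4, against 80.3, 65.5, 72.7 and 80.8 CPM in wild-type libraries 1 to 4. The genotypes were fully separated (207 ± 61.0 CPM in Fabp4-Ebf2 tissue and 74.8 ± 7.24 CPM in wild type, SD, n = 4 each), and the log2 fold change was 1.47 ± 0.19 SE (edgeR adjusted p = 0.00776). The call held without any 1 of the 8 libraries, with log2 fold changes from 1.26 to 1.59.

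Cpt2, the matrix enzyme that completes the transfer, had 307, 276, 445 and 295 CPM in Fabp4-Ebf2 libraries 1 to 4, against 255, 165, 216 and 235 CPM in wild-type libraries 1 to 4. The groups did not overlap, yet the difference did not pass (log2 fold change 0.60 ± 0.18 SE, edgeR adjusted p = 0.117). DESeq2 gave it an adjusted p of 0.0279, and the authors' deposited table gave an FDR of 0.00805, in a table where 2.92% of 28644 rows were higher at an FDR under 0.05. The authors' FDRs come from their own fit, given per transcript row, and are not on the scale of the test used here. Cpt1b had 6.45e-42 there. Slc22a5 (FDR 0.0648), Cpt1c (0.264), Crot (0.555) and Cpt1a did not pass there.

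The remaining acyltransferases act on shorter chains. Crat, carnitine acetyltransferase, which buffers acetyl-CoA in mitochondria and peroxisomes, had 588, 464, 668 and 511 CPM in Fabp4-Ebf2 libraries 1 to 4, against 413, 283, 336 and 377 CPM in wild-type libraries 1 to 4. The groups did not overlap, and the difference just missed the threshold (log2 fold change 0.66 ± 0.16 SE, edgeR adjusted p = 0.0521). It passed in 6 of 19 alternative settings, among them DESeq2 and the fit without Fabp4-Ebf2 library 2, and the authors' deposited table gave it an FDR of 9.61e-04. Crot, carnitine octanoyltransferase, which exports medium-chain products of peroxisomal oxidation, averaged 69.3 ± 9.76 CPM in Fabp4-Ebf2 tissue and 57.8 ± 5.97 CPM in wild type (SD, n = 4 each), with overlapping groups (log2 fold change 0.26 ± 0.12 SE, edgeR adjusted p = 0.281).

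Levels of different genes can be compared per kilobase. In Fabp4-Ebf2 tissue, Crat (146 ± 23.3 RPKM), Cpt2 (139 ± 32.6) and Cpt1b (139 ± 54.9) lay within their spread of each other at the top, followed by Slc25a20 (116 ± 34.2), which also lay within that spread. The lower ranks in Fabp4-Ebf2 tissue were Chkb at 51.0 ± 6.27, Crot at 23.1 ± 3.26, Cpt1a at 21.2 ± 1.99, Slc22a5 at 19.5 ± 3.81 and Cpt1c at 2.75 ± 0.37, all SD with n = 4, and Crot, Cpt1a and Slc22a5 were within their spread. In wild-type tissue, Crat (92.0 ± 14.6) and Cpt2 (91.8 ± 16.3) again led and did not differ beyond their spread. Slc25a20 followed at 42.0 ± 4.06, then Chkb at 34.8 ± 3.44, Cpt1a at 22.2 ± 2.05, Crot at 19.3 ± 1.99 and Slc22a5 at 14.2 ± 1.94, while Cpt1b stood next to last at 7.98 ± 4.64 and Cpt1c last at 4.07 ± 1.07. Chkb was scaled by the 2063 bases of its row marked best, a retained-intron transcript; its protein-coding row of 1707 bases gave 60.8 ± 7.53 RPKM in Fabp4-Ebf2 tissue and 41.4 ± 4.07 RPKM in wild type, which in wild type is within the spread of Slc25a20. The level of BC090627 is left out of this order because its reads belong to its neighbours too. The levels of Cpt1b and Chkb may likewise hold reads of the read-through RNA, in a part that was not measured.

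At the locus itself, Chkb, choline kinase beta, catalyses the first step of phosphatidylcholine synthesis from choline. It had 109, 91.1, 121 and 99.8 CPM in Fabp4-Ebf2 libraries 1 to 4, against 67.6, 82.1, 66.8 and 70.7 CPM in wild-type libraries 1 to 4. All Fabp4-Ebf2 libraries lay above all wild-type ones, by a small margin between Fabp4-Ebf2 library 2 and wild-type library 2, and the log2 fold change was 0.55 ± 0.11 SE (edgeR adjusted p = 0.0266). The call was lost in 6 of the 8 fits that left out 1 library, those without Fabp4-Ebf2 library 1, 3 or 4 or wild-type library 1, 3 or 4, with adjusted p up to 0.0874. An antisense gene, C730034F03Rik, overlaps the first exon of Chkb in GENCODE M21, and the sources used here do not say whether counting was by strand, so that reads of both genes may be mixed there. The 3 transcript rows of Chkb were nearly the same measurement, differing by at most 44 reads in a library, and each rose with a log2 fold change of 0.55 when every transcript row was tested (edgeR adjusted p from 0.0241 to 0.0243; 2.65% of 19965 rows rose).

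Cpt1b and Chkb changed unequally. The log2 ratio of Cpt1b to Chkb was 2.01, 1.31, 2.31 and 1.79 in Fabp4-Ebf2 libraries 1 to 4, against -0.64, -2.37, -2.08 and -1.995 in wild-type libraries 1 to 4. These values did not overlap, and the difference of 3.63 was tested by an exact two-sided permutation test (p = 0.0286).

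BC090627, the read-through row, had 546, 316, 719.6 and 441 CPM in Fabp4-Ebf2 libraries 1 to 4, against 109.9, 96.7, 81.7 and 87.6 CPM in wild-type libraries 1 to 4, without overlap (log2 fold change 2.43 ± 0.24 SE, edgeR adjusted p = 0.00240). Its reads equalled the sum of the Cpt1b row and the protein-coding Chkb row almost exactly. In Fabp4-Ebf2 libraries 1 to 4 it had 11557, 7527, 12457 and 10791 reads, where the sum was 11581, 7520, 12492 and 10832. Wild-type libraries 1 to 4 had 2093, 2496, 1829 and 1474 reads, where the sum was 2090, 2496, 1829 and 1461. The difference ran from -41 to 13 reads and was 0 in wild-type libraries 2 and 3. Reads of Cpt1b and of Chkb were thus counted for the BC090627 row as well. In GENCODE M21, 324 of 1707 bases of Chkb and 151 of 2895 bases of Cpt1b are not in exons of BC090627, so counting over these shared exons alone would not give the full sum, and no source used here names the transcript models of the authors' count. The table holds no separate measure of RNA that crosses the junctions printed above. Read-through RNA may likewise be counted in the Cpt1b and Chkb rows, and its part in their levels and fold changes was not measured.

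The make-up of that sum differed by genotype. Cpt1b reads were 78.3 ± 5.04% of it in Fabp4-Ebf2 and 23.8 ± 10.5% in wild type (SD, n = 4 each). The log2 ratio of BC090627 to Cpt1b averaged 0.35 ± 0.10 in Fabp4-Ebf2 and 2.16 ± 0.56 in wild type, a difference of -1.80, and that of BC090627 to Chkb 2.21 ± 0.33 in Fabp4-Ebf2 and 0.38 ± 0.21 in wild type, a difference of 1.82 (SD, n = 4 each). Both ratios are set by that of Cpt1b to Chkb, tested above, because BC090627 holds the sum, so no further test is drawn from them. The fold change of BC090627, between those of its neighbours, follows from this counting and is not a separate measurement of the locus.

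**Figure D3:**
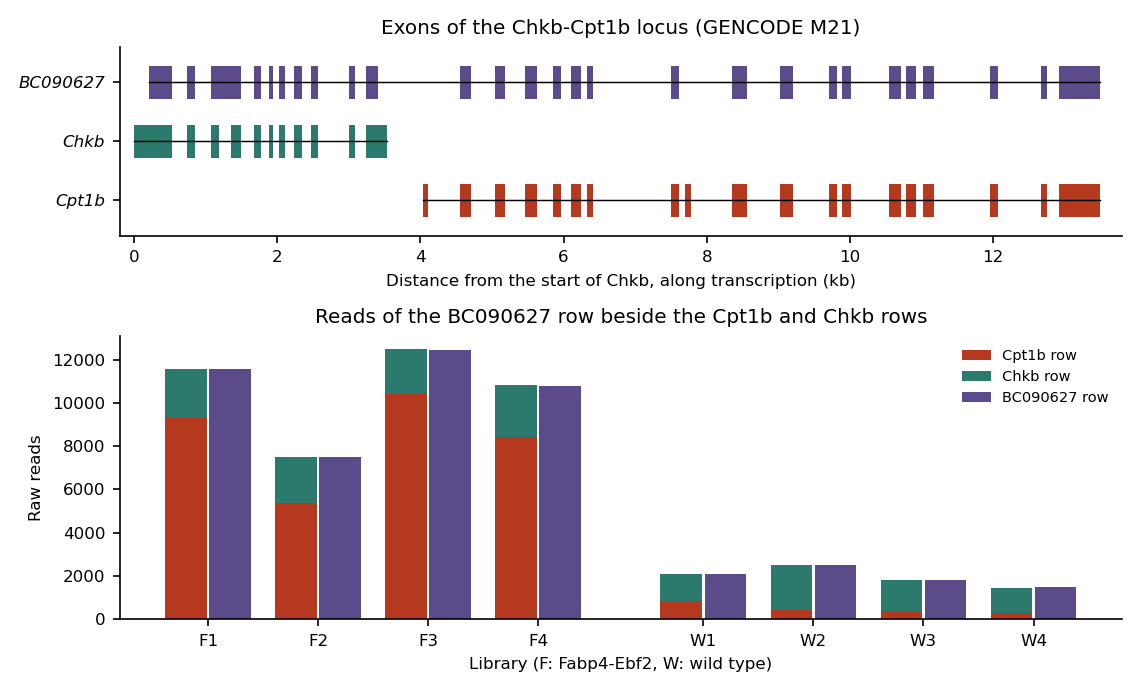
Upper panel, exons of BC090627, Chkb and Cpt1b as boxes against distance in kb from the start of Chkb along transcription (GENCODE M21). Lower panel, raw reads per library in the Cpt1b row and the protein-coding Chkb row (stacked, left bar) beside the BC090627 row (right bar) for Fabp4-Ebf2 (F1 to F4) and wild-type (W1 to W4) libraries; the paired bars differ by at most 41 reads.

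The genes around the locus were tested in the same fit. Of the 10 nearest tested genes on each side in RefSeq gene order, 0 of 20 passed the edgeR test in either direction, with a median log2 fold change of -0.03, while 6 had an unadjusted p under 0.05 and DESeq2 called 2. A count of 0 in 20 is near the 3.42% called over all genes, and 17.5% of all genes tested had an unadjusted p under 0.05. Their log2 fold changes ran from -0.85 in Odf3b, the next tested gene beyond Cpt1b (edgeR adjusted p = 0.125), to 0.36 in Tymp (edgeR adjusted p = 0.165), and Arsa, the next beyond Chkb, had -0.02. Odf3b was near the floor, at 0.347 to 0.532 CPM in Fabp4-Ebf2 libraries and 0.714 to 1.05 CPM in wild-type libraries. Odf3b, Tymp and Arsa were picked for naming after their values were seen.

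Among the Fabp4-Ebf2 libraries, Cpt1b was highest in library 3, then 1, 4 and 2. Leaving out Cpt1b, which sets the order, and BC090627, which holds its reads, 6 of the remaining 8 genes, all but Cpt1a and Cpt1c, had this order, as had Ebf2 and Ucp1. The order was found in 10.4% of all genes tested and in 41.9% of the 420 genes that rose. The genes of 1 library share its cells and its processing, so the order is a description of these 4 libraries.

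**Figure D4:**
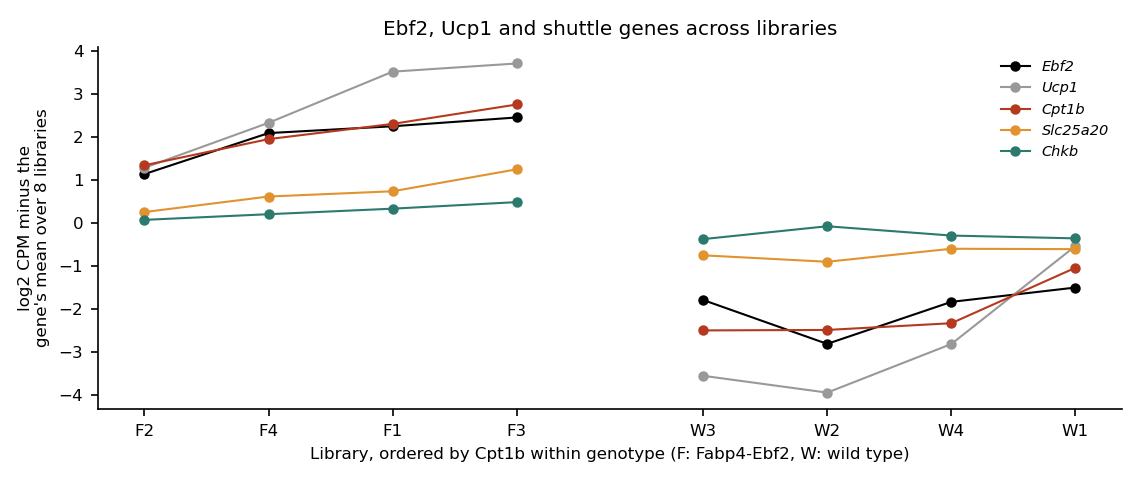
Ebf2, Ucp1, Cpt1b, Slc25a20 and Chkb as log2 CPM minus the gene's own mean over 8 libraries, in Fabp4-Ebf2 libraries (F, left) and wild-type libraries (W, right), ordered by Cpt1b within genotype; each point is 1 library. All 5 genes increase in the order F2, F4, F1, F3, and W1 is the highest wild-type library for Cpt1b, Ebf2 and Ucp1 but not for Slc25a20 or Chkb.

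The genes whose pattern over the 8 libraries was most like that of Cpt1b, out of 14132 ranked by Pearson correlation of log2 CPM, were Cox7a1 (r = 0.994), Gnao1 (r = 0.994), Fabp3 (r = 0.993), Esrrg (r = 0.993) and Phospho1 (r = 0.993). These correlations include the genotype difference itself and are given as a description over 8 libraries. Among the shuttle genes, Slc25a20 had r = 0.972 and Crat r = 0.941, whereas Cpt1a had r = -0.21 and Cpt1c r = -0.64.

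Of the steps that follow the shuttle, matrix beta-oxidation was higher at most genes: 14 of 18 rose, none fell, and all 18 had a higher mean, with a median log2 fold change of 1.06. The 4 with the smallest p were Acaa2, the last thiolase step (log2 fold change 2.49, edgeR adjusted p = 0.00282), Acadvl, the very-long-chain acyl-CoA dehydrogenase (1.70, adjusted p = 0.00805), Etfdh, which passes electrons to ubiquinone (1.77, adjusted p = 0.00900), and Hadha, a subunit of the trifunctional protein (1.51, adjusted p = 0.00970). The count was 6 without wild-type library 3, and 7 without Fabp4-Ebf2 library 1 or wild-type library 4. In peroxisomal oxidation 3 of 15 tested genes rose and none fell, with a median of 0.22: Decr2, a dienoyl-CoA reductase (0.78), Acaa1b, a thiolase (0.73), and Ehhadh, the bifunctional enzyme (1.48). That count was 0 without wild-type library 3 or 4, 1 without wild-type library 1, and 5 without Fabp4-Ebf2 library 2. Over all genes tested, 2.8% rose and 0.62% fell.

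In the list for fatty acid activation, acyl-CoA thioesterases included, 3 of 15 tested genes rose and none fell (median log2 fold change 0.26). Slc27a2, a fatty acid transport protein and very-long-chain acyl-CoA synthetase, averaged 83.9 ± 30.5 CPM in Fabp4-Ebf2 tissue and 3.64 ± 1.51 CPM in wild type (SD, n = 4 each; log2 fold change 4.54, edgeR adjusted p = 6.58e-04). The other two were the thioesterases Acot2 (1.41) of mitochondria and Acot13 (0.78), which release rather than bind CoA. Acot2 has close paralogs, so its reads may be shared among them. In the list for control by malonyl-CoA, 1 of 10 rose and none fell: Acsf3, a mitochondrial malonyl-CoA synthetase (log2 fold change 0.76, edgeR adjusted p = 0.0338), against a list median of 0.48. Its call was lost without Fabp4-Ebf2 library 1 or 4 or wild-type library 2, 3 or 4, while 2 genes of the list rose without Fabp4-Ebf2 library 2. Over all genes tested 2.8% rose, and a count of 1 in 10 is not read as a result about the malonyl-CoA list.

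Among 18 tested genes of known regulators of Cpt1b, 4 rose and none fell (median log2 fold change 0.23). They were the nuclear receptors Esrrg (log2 fold change 3.14, edgeR adjusted p = 0.00182), Ppara (2.51, adjusted p = 0.00981) and Esrra (0.54, adjusted p = 0.0473) and the coactivator Ppargc1b (1.37, adjusted p = 0.0250). With 1 of the 8 libraries left out in turn, Esrrg and Ppara passed in all 8 fits, Ppargc1b in 3 and Esrra in 1, and the count was 2 without Fabp4-Ebf2 library 1 or 3 or wild-type library 3 or 4. For the pathway of Chkb, synthesis of choline and ethanolamine phospholipids, 1 of 13 tested genes rose, which was Chkb itself, and none fell, with a median of 0.13. Beside these counts, 2.8% of all genes tested rose, and 1 in 13 is not read as a result about that pathway.

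**Figure D5:**
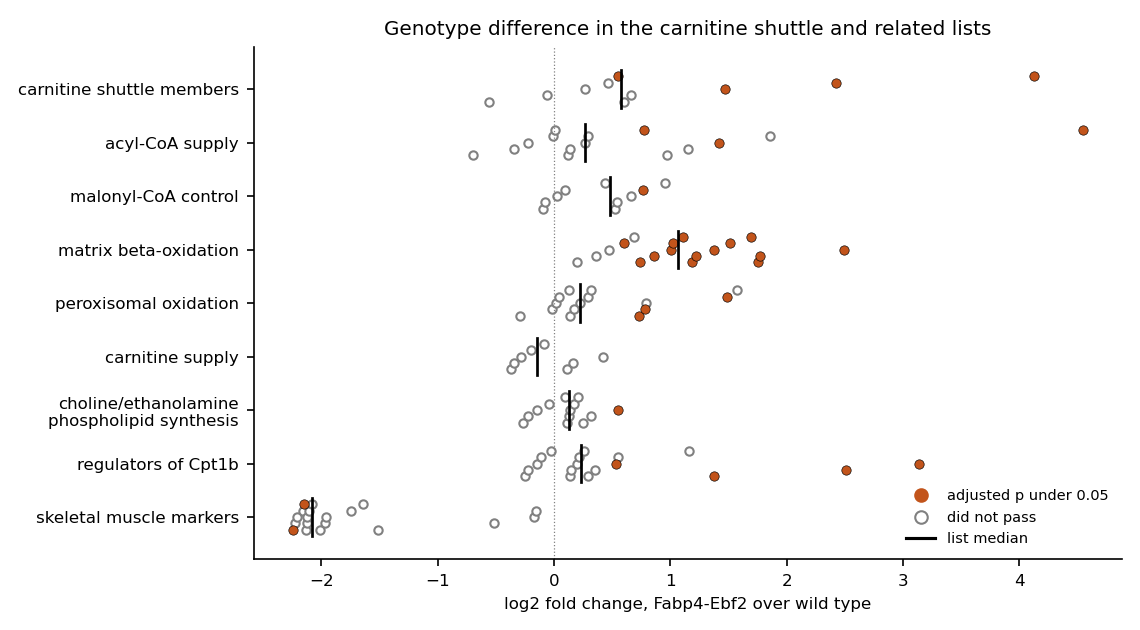
Log2 fold change, Fabp4-Ebf2 over wild type, of each tested gene (1 point each) in the 10 shuttle and locus genes, 7 related pathway lists and the skeletal muscle markers; filled points passed the edgeR test at an adjusted p of 0.05 and bars are list medians. Matrix beta-oxidation lies to the right of 0 at all 18 genes, and all 19 tested muscle markers lie to the left.

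Cpt1b is also a gene of skeletal and heart muscle and of brown fat, so markers of these cells are given beside it. Skeletal muscle markers were lower in Fabp4-Ebf2 at all 19 tested genes (median log2 fold change -2.08), of which Tcap (-2.15, edgeR adjusted p = 0.0407) and Casq1 (-2.24, edgeR adjusted p = 0.0474) fell and none rose. Over all genes tested, 0.62% fell. With 1 of the 8 libraries left out in turn, Tcap passed only without Fabp4-Ebf2 library 2 or wild-type library 2 and Casq1 only without Fabp4-Ebf2 library 2. Summed over all 20 markers, none of which was at 0 in any library, they made up 105 to 480 CPM in Fabp4-Ebf2 tissue and 547 to 1458 CPM in wild type, with the highest value of each genotype in library 2 of Fabp4-Ebf2 and library 1 of wild type. Wild-type library 1 was also the highest of its genotype for Cpt1b, whereas Fabp4-Ebf2 library 2 was the lowest of its own. Without these 2 libraries the log2 fold change of Cpt1b was 4.81 and that of Slc25a20 1.63.

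The 5 cardiac markers were at most 0.867 CPM in any library, and the only one tested did not pass. Of the brown and beige adipocyte markers, 4 of 9 tested rose and none fell, beside 2.8% and 0.62% of all genes tested. Those that rose were Cox7a1 (3.58), Cidea (2.66), Ucp1 (5.03) and Cox8b (1.77, all as log2 fold changes). The other 5 did not pass: Ppargc1a (1.16), Dio2 (2.06) and Elovl3 (1.125) were higher, and Prdm16 (-0.11) and Lhx8 (-0.62) were lower. All 10 markers summed to 985 to 3299 CPM in Fabp4-Ebf2 tissue and 156 to 397 CPM in wild type. Ucp1 alone reached 1873 CPM in Fabp4-Ebf2 library 3. Zic1, a marker of classical brown fat, was at most 0.0838 CPM in Fabp4-Ebf2 libraries and at 0 in all wild-type libraries. The calls of Cox7a1 and Cidea held without any 1 library, while that of Cox8b was lost without Fabp4-Ebf2 library 1 or wild-type library 2, 3 or 4. None of 6 macrophage, 8 lymphocyte or 4 hepatocyte markers tested passed in either direction by edgeR. These counts are near the 3.42% called over all genes tested. Of them, 1, 1 and 2 had an unadjusted p under 0.05, beside 17.5% of all genes, and DESeq2 called 1 hepatocyte marker. In the hepatocyte list Cyp2e1 had 790 to 4359 CPM, whereas Alb had 5.32 to 37.5 CPM. Apoa1, Ttr and Serpina1a were at most 1.56 CPM, so the list is not read as a measure of liver cells. The part of these cell types in the levels of the shuttle genes was not tested.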

How the data were processed

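Libraries of polyadenylated RNA were prepared with a TruSeq kit, per the labels' protocols. The deposited table gives the authors' raw read counts for 28644 RefSeq transcript rows, made against mm9 per the submitters' processing notes, which also name edgeR (aligner, counter and strandedness: not given in the sources used here). It also holds, per the file headers, the authors' log2 fold change and an FDR, an adjusted p-value, per row. A further 8 per-sample columns were not used.

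One row stood for each gene: the row marked best by the authors (21967 genes), otherwise that with most reads (902 genes). Counts were tested with edgeR 4.0.16 (R 4.3.3; TMM factors 0.941 to 1.07, filterByExpr, glmQLFit and glmQLFTest on genotype alone, Benjamini-Hochberg at 0.05 over 15002 genes, of which 513 passed and 2625 had an unadjusted p under 0.05). The same test over all transcript rows served the locus. Standard errors are the absolute log2 fold change over the square root of F. Library totals, summed over 1 row per gene, were 16.9 to 24.7 M reads. The coefficient of biological variation was 18.7%, so spread between libraries rather than depth set the precision of well-counted genes. Log2 ratios used a prior count of 2 and exact permutation over 70 arrangements. Lengths came from GENCODE M21, matched by transcript accession. The edgeR script was tested on simulated data. Alternatives used DESeq2 1.42.0 and limma 3.58.1 among other settings.

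All 10 members are named whatever their result; of each list, the genes past the threshold with the 4 smallest p, or the 2 smallest where none passed, and the 5 genes most like Cpt1b. Members and lists were chosen with earlier results of these data known. Alternatives for the list counts and the test against a fold of 1.5 were added after seeing the data.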

Additional observations from a re-analysis of the deposited data

Results flagged for a closer look

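In 3 of 30 groups of 4 libraries checked, 1 library stood far from the other 3 by Dixon's criterion (gap to the nearest library over the range). Chance gives such a gap in about 1 in 20 groups. Cpt1b was at 43.2 CPM in wild-type library 1, above 15.7 to 17.7 CPM in the remaining ones (gap 0.930 of the range). Slc22a5 was at 34.6 CPM in wild-type library 2, below 46.0 to 47.1 CPM in the others (0.912). The log2 ratio of BC090627 to Chkb was 0.70 in wild-type library 1, above 0.24 to 0.31 in the others (0.840), and this ratio holds the same Cpt1b reads as the first value. Wild-type library 1 also had the most Ebf2, Ucp1 and skeletal muscle marker RNA of its genotype, and their part in these values was not tested.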

How the results depend on the processing

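Cpt1b and Slc25a20 stayed past the threshold in all 19 alternative settings (the test against a 1.5-fold change aside) and BC090627 in all 18 in which it was tested; Chkb passed in 12 of 19, Crat in 6, Cpt2 in 1 (DESeq2), and Cpt1a, Cpt1c, Crot and Slc22a5 in 0. No log2 fold change of a member reversed. The number of members called was 3 to 6, with 6 under DESeq2 and 3 in a test against a 1.5-fold change, under which Chkb was lost. Genes called over the whole table numbered 513, but 1233 with DESeq2, 60 against a 1.5-fold change, and 116 to 918 with 1 library left out. DESeq2 split them 848 higher to 385 lower.

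The log2 ratios kept their sign, but fewer libraries cannot reach 0.05. With 1 library left out (smallest possible p 0.0571, reached each time) Cpt1b to Cpt1a differed by 3.99 to 4.59, Cpt1b to Chkb by 3.43 to 4.00, BC090627 to Cpt1b by -2.07 to -1.65 and BC090627 to Chkb by 1.70 to 1.96. Without the library with most muscle RNA of each genotype they were 4.79, 4.18, -2.12 and 2.07 (exact p = 0.1, the smallest possible). With the replicate number as a block they were 4.24, 3.63, -1.80 and 1.82 (exact sign-flip p = 0.125, the smallest possible).

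Same-numbered libraries of the genotypes had correlations of -0.13, 0.33, 0.14 and 0.06 between their deviations, and not every library correlated best with its own number, so the numbers are not taken as pairs. With the replicate block 598 genes and 4 members were called, Crat in place of Chkb. The cause was not tested for any call that changed. Fits without a library also hold fewer samples, and the part of this was not tested either. Depth matters most for Cpt1c, with 116 to 217 reads in Fabp4-Ebf2 libraries, where counting error alone gives a coefficient of variation of 7.7% beside 13.3% observed.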
